A study of Mus musculus with 12 samples.

Results

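The ribosomal proteins of the cytosolic ribosome were followed in EL-4 cells, which are mouse T lymphoma cells, through 217 probe sets of the Affymetrix Mouse Gene 1.0ST array. Members were all probe sets whose annotation pairs them with exactly 1 gene symbol and whose symbol is that of a small (Rps, Rpsa) or large (Rpl, Rplp) subunit protein. Symbols that mark pseudogenes (-ps) and the ribosomal S6 kinases (Rps6k) were left out. The 217 probe sets belong to 61 of 19938 genes, 85 of them to 23 genes of the 40S subunit and 132 to 38 genes of the 60S subunit. The genes lie on 17 chromosomes, with at most 8 on any of them. They were taken from 35399 probe sets, of which 23410 have at least 1 symbol and were tested. Of the 61 genes, 39 had more than 1 probe set, and the 217 probe sets held 205 distinct sets of values. Another 237 probe sets list several symbols with a ribosomal protein among them, and 17 symbols found only there, such as Rpl3, Rpl11 and Rpl32, are not analysed here.

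The 12 arrays formed 4 groups of 3, and all cells were EL-4 cells with a pretreatment of 30 min. CHX-treated P/I-stimulated cells received cycloheximide (CHX) at 10 μg/ml, which stops translation elongation, and then phorbol 12-myristate 13-acetate (PMA) at 10 ng/ml with ionomycin at 1 μM (together P/I) for 4 h. DMSO-treated P/I-stimulated cells received the solvent DMSO in place of CHX. CHX-treated unstimulated cells and DMSO-treated unstimulated cells had the same pretreatments and a P/I time of 0 h. The time that unstimulated cells spent in CHX after the pretreatment is not given in the sources used here, so time in CHX and stimulation cannot be told apart in a comparison of the CHX-treated groups. The study describes the 3 arrays of each group as biological replicates of 1 cell line. Values are log2 robust multichip average (RMA) values, and the number of arrays limits their precision.

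Ribosomal proteins assemble with ribosomal RNA in the nucleolus into the 40S subunit, which decodes the mRNA, and the 60S subunit, which forms the peptide bond. Their mRNAs are among the most abundant of dividing cells and usually begin with a terminal oligopyrimidine (TOP) stretch. Through that stretch the kinase mTOR and the RNA-binding protein LARP1 set how well they are translated and how stable they are. Activation of resting T cells calls for new ribosomes, whereas EL-4 cells grow continuously before any stimulus. CHX leaves ribosomes bound to the mRNAs that they were translating.

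The stretch around the annotated start carries both the promoter core and the TOP letters, and it is printed here for genes on which the results turn. Sequences are from RefSeq (build GRCm38.p6), 40 bases before to 20 bases after an annotated start, 5′ to 3′ on the strand of the gene. Capitals mark the TOP word CTTTC and its variants, with CTTCC as the first variant and CTTTT as the other, on the sense strand. They also mark CCGGAAG, the core of ETS factor sites, and the Sp1 core, which reads GGGCGG, on either strand. The first 7 sequences belong to genes with large decreases in CHX and the last 3 to genes with none called. Rps21 and Rpl10a have a pair of annotated starts each.
Rpl12 (chr2:32961672-32961731, plus strand): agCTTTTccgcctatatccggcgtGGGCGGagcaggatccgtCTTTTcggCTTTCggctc
Rps15a (chr7:118116128-118116187, minus strand): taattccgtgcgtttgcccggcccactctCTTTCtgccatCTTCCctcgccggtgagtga
Rplp2 (chr7:141447611-141447670, plus strand): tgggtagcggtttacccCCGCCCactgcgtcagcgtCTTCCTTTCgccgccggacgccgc
Rplp0 (chr5:115559427-115559486, plus strand): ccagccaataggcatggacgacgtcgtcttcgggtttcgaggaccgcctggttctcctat
Rps21, upstream start (chr2:180257339-180257398, plus strand): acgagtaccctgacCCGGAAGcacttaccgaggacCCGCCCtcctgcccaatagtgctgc
Rps21, downstream start (chr2:180257409-180257468, plus strand): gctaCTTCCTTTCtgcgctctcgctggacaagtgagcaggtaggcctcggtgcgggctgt
Rps13 (chr7:116334171-116334230, minus strand): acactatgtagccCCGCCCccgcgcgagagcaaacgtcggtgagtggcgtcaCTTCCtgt
Rps18 (chr17:33955646-33955705, minus strand): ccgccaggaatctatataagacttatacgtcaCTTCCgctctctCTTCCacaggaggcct
Rpl7l1 (chr17:46782637-46782696, minus strand): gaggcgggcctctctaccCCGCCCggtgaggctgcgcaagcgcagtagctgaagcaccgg
Rpl10a, downstream start (chr17:28328525-28328584, plus strand): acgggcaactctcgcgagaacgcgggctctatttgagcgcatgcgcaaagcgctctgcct

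In Rps15a a TOP word begins at the annotated start itself, in Rplp2 a run of the TOP letters spans the start, and in Rpl12 it begins just after it. Of the 61 genes, 49 had a sequence, with 58 windows of 300 bases each. A TOP core (any of the 3 words, from 10 bases before to 50 bases after the start, sense strand) was found in 34 of the 58 windows, or 58.6%, against 22.8% of all 32851 windows of the table. The ETS core on either strand was found in 34.5% of the 58 windows and in 8.86% of all windows. The Sp1 core was found in 56.9% and 35.7%, and the YY1 core AAGATGG in 8.62% and 6.34%. The TOP core was in 17 of 26 windows of genes whose every probe set was lower with CHX during P/I and in 8 of 16 windows of genes with none lower. Some genes have several windows. Counted by gene, it was in 16 of 23 and in 7 of 11, or 69.6% and 63.6%, and the difference was not tested. A word was counted wherever it lay in that stretch, for example at base 44 after the start in Rpl10 and base 45 in Rpl5. TOP stretches begin the mRNA, so these shares are not shares of genes with a TOP mRNA. These matches are descriptions of letters, and annotated starts can lie some bases from the start that the cells use.

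With CHX present during P/I, ribosomal protein mRNAs were lower across both subunits, most of them by a small amount. Of the 217 probe sets, 132 were lower in CHX-treated than in DMSO-treated P/I-stimulated cells and 0 were higher at a Benjamini-Hochberg adjusted p under 0.1 from limma. That is 60.8% of the members, against 12% lower and 13.2% higher among all tested probe sets. The members' median log2 fold change was -0.25, a change of -15.9%, and that of all tested probe sets was 0.01. These are levels in bulk RNA relative to all other RNA on the array, so fewer cells with these mRNAs and less of them per cell cannot be told apart. Among 1611 other probe sets that averaged log2 10 or more, a level range in which many members lie, 22.3% were lower and 15.5% were higher, and the median log2 fold change was -0.11. The estimate lay below 0 for 213 of the 217 probe sets, and the 3 arrays of each group did not overlap, with CHX lower, for 171, a pattern found in 14.8% of all tested probe sets. It was found in 506 of the 1611 other probe sets that averaged log2 10 or more.

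**Figure D1:**
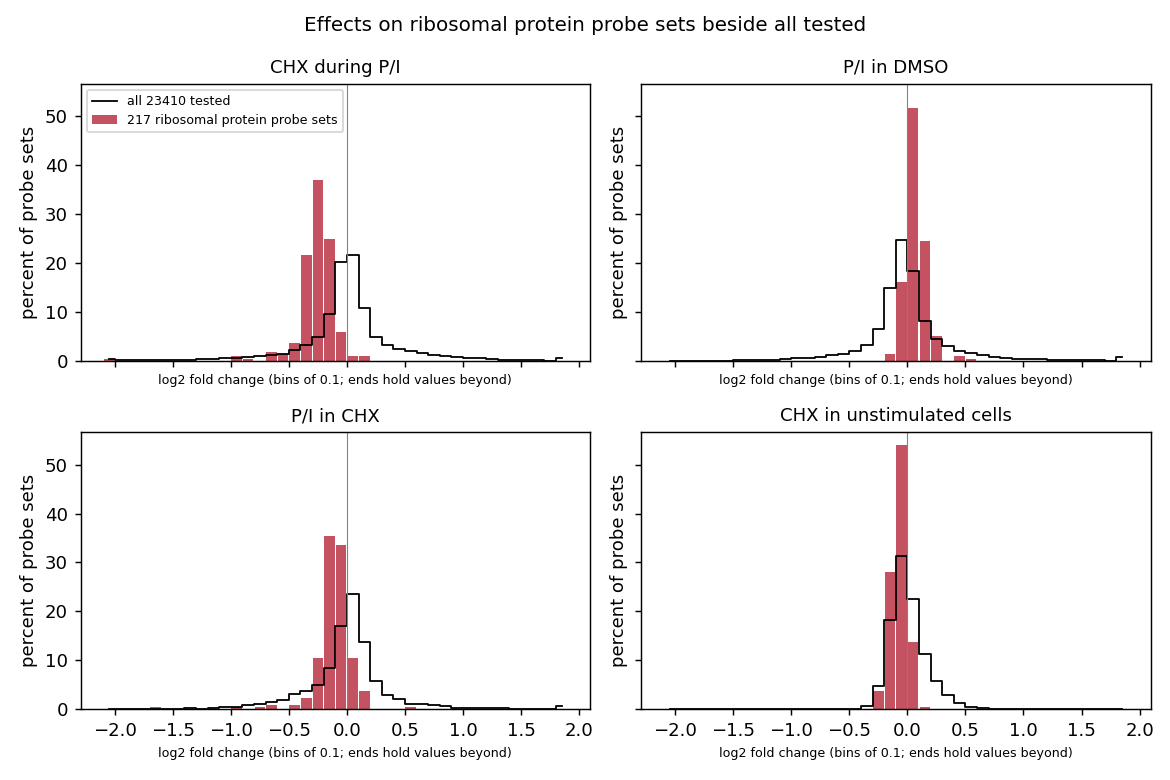
Distribution of log2 fold changes (x axis, bins of 0.1) of the 217 ribosomal protein probe sets (red bars) and of all 23410 tested probe sets (black line) as percent of probe sets (y axis) in 4 comparisons. With CHX during P/I nearly all of the red bars lie left of 0 around a median of -0.25, whereas the black line is centred near 0.

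The same pattern was seen on single arrays. After subtraction of each probe set's mean over the 12 arrays, the median over the 217 members was -0.11, -0.18 and -0.10 on the 3 arrays of CHX-treated P/I-stimulated cells. It was 0.07, 0.15 and 0.11 in DMSO-treated P/I-stimulated cells, -0.02, 0.01 and -0.05 in CHX-treated unstimulated cells, and 0.02, 0.09 and 0.03 in DMSO-treated unstimulated cells. The arrays with both CHX and P/I were the lowest of the 12 and overlapped no other group, and the arrays with P/I alone were above CHX-treated unstimulated cells and overlapped DMSO-treated unstimulated cells. The median of all tested probe sets, taken in the same way, lay between -0.06 and 0.02 on the 12 arrays. With each array centred on its own median, 85 members were lower and their median log2 fold change was -0.19. After a further quantile normalization 85 were lower and 1 was higher, with a median of -0.17.

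**Figure D2:**
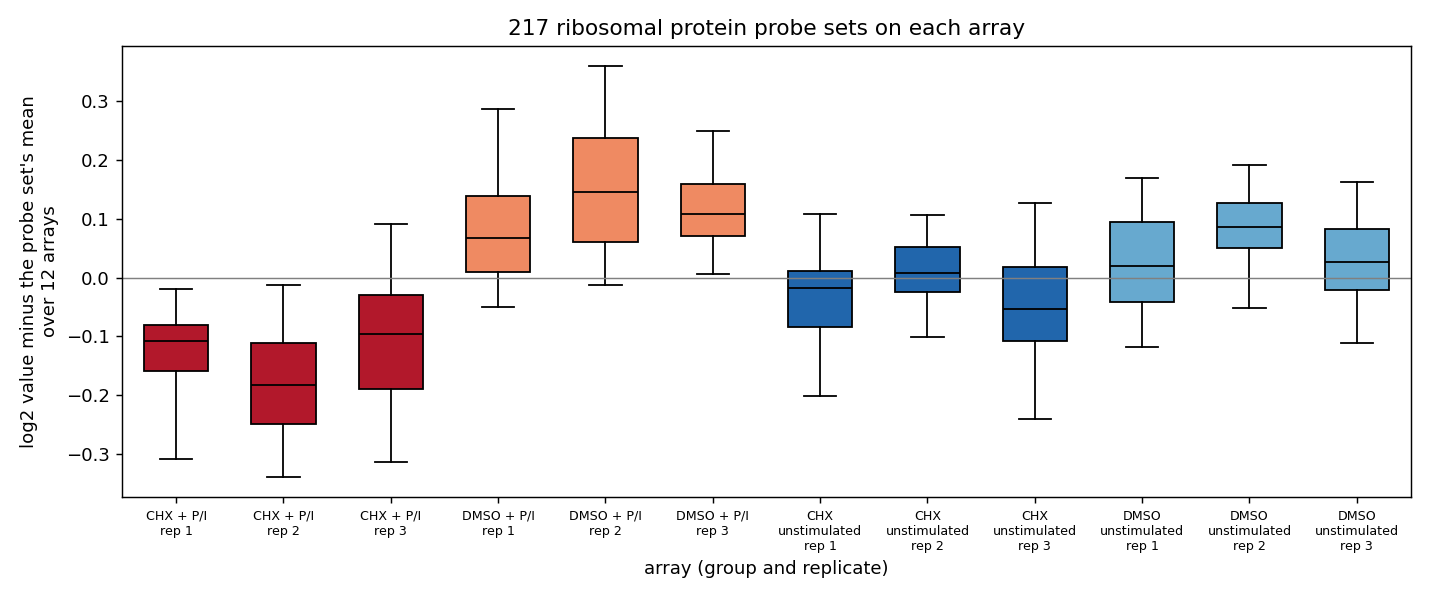
Log2 value of each of the 217 ribosomal protein probe sets minus its mean over 12 arrays (y axis) on each array (x axis, grouped by treatment). Boxes show the median and quartiles over probe sets and whiskers the 5th and 95th percentiles, and the medians of the 3 CHX + P/I arrays, between -0.18 and -0.10, are the lowest of the 12.

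Among the 60S proteins Rpl12, which sits at the base of the ribosomal stalk, had the largest decrease of any member. Its levels were 6.79, 6.70 and 7.11 in CHX-treated P/I-stimulated cells, 9.07, 8.64 and 8.96 in DMSO-treated P/I-stimulated cells, 8.70, 8.39 and 8.33 in CHX-treated unstimulated cells, and 8.95, 8.52 and 8.50 in DMSO-treated unstimulated cells. All 3 arrays with both CHX and P/I were below all 9 others, and the other 3 groups overlapped one another. The log2 fold change for CHX during P/I was -2.02 (SE 0.16, limma adjusted p = 5.87e-06), which is 4.06-fold lower with CHX. Rpl12 has 1 probe set here, so no second probe set bears on its value. The same holds for Rpl30, Rpl34, Rpl14, Rplp2 and Rps15a, whose large decreases are given below.

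Rpl30, a small 60S protein near the interface of the subunits, had levels of 10.05, 10.17 and 10.00 in CHX-treated P/I-stimulated cells and 11.27, 10.70 and 10.94 in DMSO-treated P/I-stimulated cells. The levels were 11.30, 10.85 and 10.94 in CHX-treated unstimulated cells and 10.80 to 11.27 in DMSO-treated unstimulated cells. The 3 arrays with CHX and P/I lay below the rest, and replicate 1 was the highest of each other group. The log2 fold change for CHX during P/I was -0.90 (SE 0.17, limma adjusted p = 0.00212). Rpl34 and Rpl14 had log2 fold changes of -0.67 (SE 0.18) and -0.61 (SE 0.23). For Rpl14 the groups overlapped, with 8.24, 8.45 and 8.59 in CHX-treated P/I-stimulated cells and 9.68, 8.50 and 8.94 in DMSO-treated P/I-stimulated cells. Its adjusted p was 0.0814 from limma, and without replicate 1 of the DMSO-treated P/I-stimulated cells the log2 fold change was -0.29 and was not called.

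The P proteins, Rplp0, Rplp1 and Rplp2, form the stalk that recruits the elongation factors. Rplp2 had levels of 8.43, 8.67 and 8.55 in CHX-treated P/I-stimulated cells and 9.45, 9.32 and 9.49 in DMSO-treated P/I-stimulated cells. It lay between 9.20 and 9.50 on the 6 arrays of the unstimulated groups, so the arrays with CHX and P/I were again the only low ones. The log2 fold change for CHX during P/I was -0.87 (SE 0.09, limma adjusted p = 4.88e-05). Probe set 10524718 of Rplp0, which anchors the stalk to the ribosomal RNA, had levels of 11.05, 11.07 and 11.10 in CHX-treated P/I-stimulated cells and 11.80, 11.58 and 11.76 in DMSO-treated P/I-stimulated cells, with no overlap and a log2 fold change of -0.64 (SE 0.10). The other Rplp0 probe set, 10436694, had a log2 fold change of -0.14 (SE 0.08) that was not called, so the probe sets of this gene differ in size of effect. Of the 2 probe sets of Rplp1, 1 was lower, and their log2 fold changes were -0.27 and -0.17.

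Among the 40S proteins the largest decrease was that of Rps15a, a protein of the 40S body that binds the small subunit RNA. Its levels were 8.60, 8.83 and 8.85 in CHX-treated P/I-stimulated cells and 9.81, 9.81 and 9.57 in DMSO-treated P/I-stimulated cells. They were 9.70, 9.54 and 8.95 in CHX-treated unstimulated cells and 9.87, 9.56 and 9.59 in DMSO-treated unstimulated cells. The arrays with CHX and P/I were below all the others, and replicate 3 of the CHX-treated unstimulated cells lay apart from its group, close to them. The log2 fold change for CHX during P/I was -0.97 (SE 0.17, limma adjusted p = 0.00153).

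Rps21, a small 40S protein needed for late processing of the 40S RNA, was lower with CHX during P/I in its 2 probe sets and higher with P/I alone in 1 of them. Probe set 10439237 had levels of 8.73, 8.59 and 8.91 in CHX-treated P/I-stimulated cells, 9.43, 9.44 and 9.46 in DMSO-treated P/I-stimulated cells, 8.95, 8.94 and 8.79 in CHX-treated unstimulated cells, and 9.05, 9.09 and 8.93 in DMSO-treated unstimulated cells. The arrays with P/I alone were the highest of the 12, with an SD of 0.02 (n = 3), and they enter both of the comparisons in which Rps21 was called. The log2 fold change for CHX during P/I was -0.70 (SE 0.09, limma adjusted p = 0.000185), and that of its other probe set, 10479362, was -0.41 (SE 0.09). Rps13, at the interface of the subunits, was lower in all 3 of its probe sets (log2 fold changes of -0.53, -0.46 and -0.46). Rps4x, the X-linked copy of S4, was lower in all 5 of its probe sets (-0.57 to -0.37), and Rps25, needed for translation from some viral entry sites, in 5 of 6 (-0.47 to -0.22 over all 6).

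**Figure D3:**
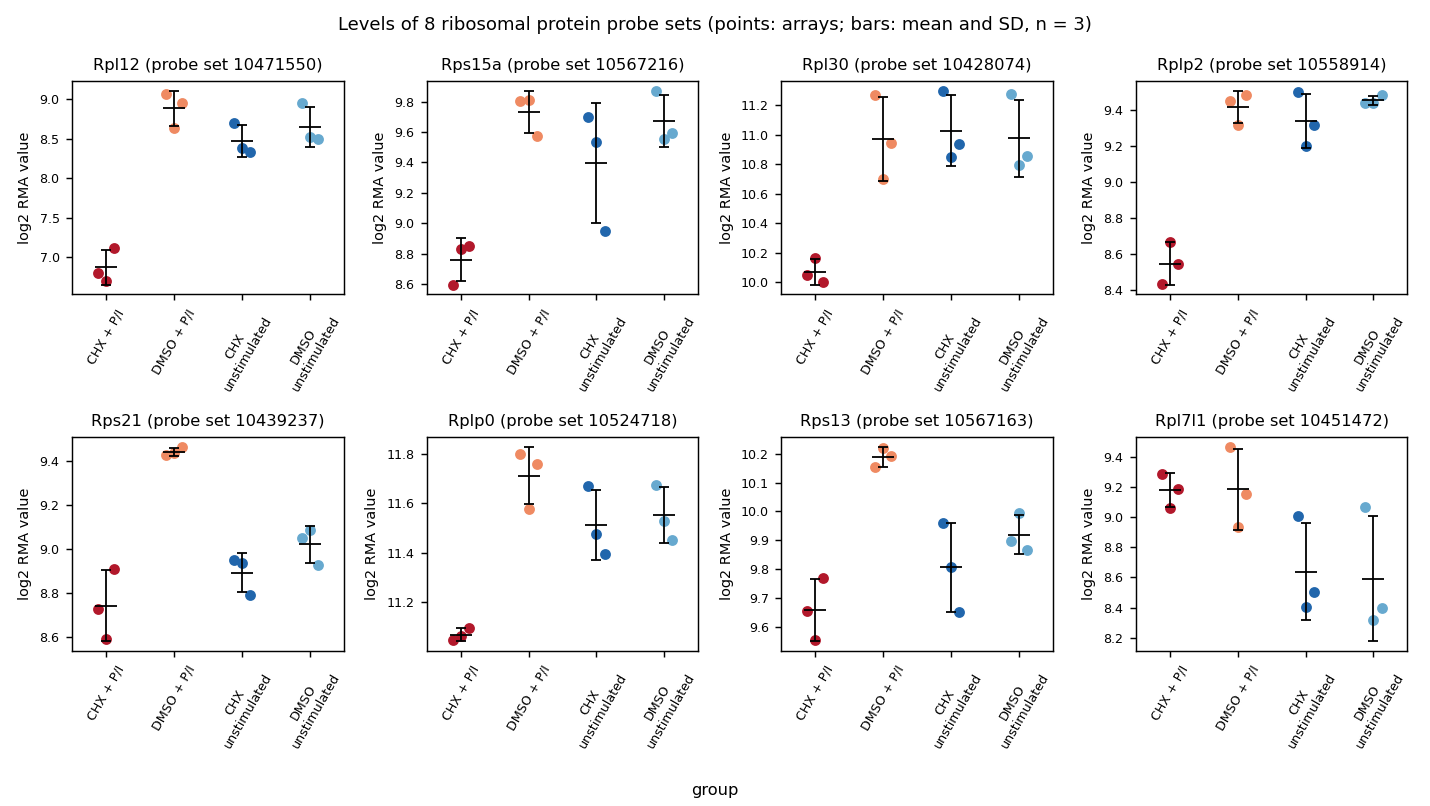
Log2 RMA values (y axis) of 8 ribosomal protein probe sets on the 12 arrays by group (x axis), with points for arrays and bars for the mean and SD (n = 3). In the panels of Rpl12, Rps15a, Rpl30, Rplp2 and Rplp0 the 3 CHX + P/I points lie below all other points, in Rps21 the 3 DMSO + P/I points lie above all others, and in Rpl7l1 the CHX + P/I points lie within the range of DMSO + P/I.

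Counted by gene, 27 of the 61 had every probe set lower in CHX during P/I, 19 had some and 15 had none. For the 40S subunit these counts were 13, 5 and 5 of 23 genes, and for the 60S subunit 14, 14 and 10 of 38 genes. The median log2 fold change was -0.29 over the 85 probe sets of the 40S subunit, 58 of them lower, and -0.23 over the 132 probe sets of the 60S subunit, 74 of them lower. The difference between the subunits was not tested. All 14 probe sets of Rps12, all 7 of Rps28 and 11 of 13 of Rpl23a, a protein at the exit of the peptide tunnel, were lower, and the log2 fold changes of these 3 genes lay between -0.40 and -0.18. Some of these probe sets hold identical values, with 8 distinct sets of values among the 14 of Rps12, 6 among the 7 of Rps28 and 11 among the 13 of Rpl23a. Probe sets of 1 gene may share sequence and were not taken as independent of each other.

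The 15 genes with no probe set called lower were Rpl4, Rpl8, Rpl10a, Rpl29, Rpl36, Rpl41, Rps2, Rps18, Rps19 and the paralogs Rpl3l, Rpl7l1, Rpl10l, Rpl39l, Rps4l and Rps27l. Rpl10a, a 60S protein found on only part of the ribosomes in mouse stem cells, had log2 fold changes between -0.08 and 0.01 in 4 probe sets (SE 0.07 to 0.08). Rps18, at the head of the 40S subunit, had -0.14 to -0.10 in 7 probe sets, and Rpl41, the shortest ribosomal protein, had -0.07. The 9 probe sets of Rpl36 had -0.30 to -0.24, as low as many called members, with larger SEs of 0.11 to 0.14, so an uncalled member is not one that was shown to be unchanged. Split by mean level, the 73 members with the lowest means had a median log2 fold change of -0.30, the middle 72 had -0.28 and the highest 72 had -0.17.

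**Figure D4:**
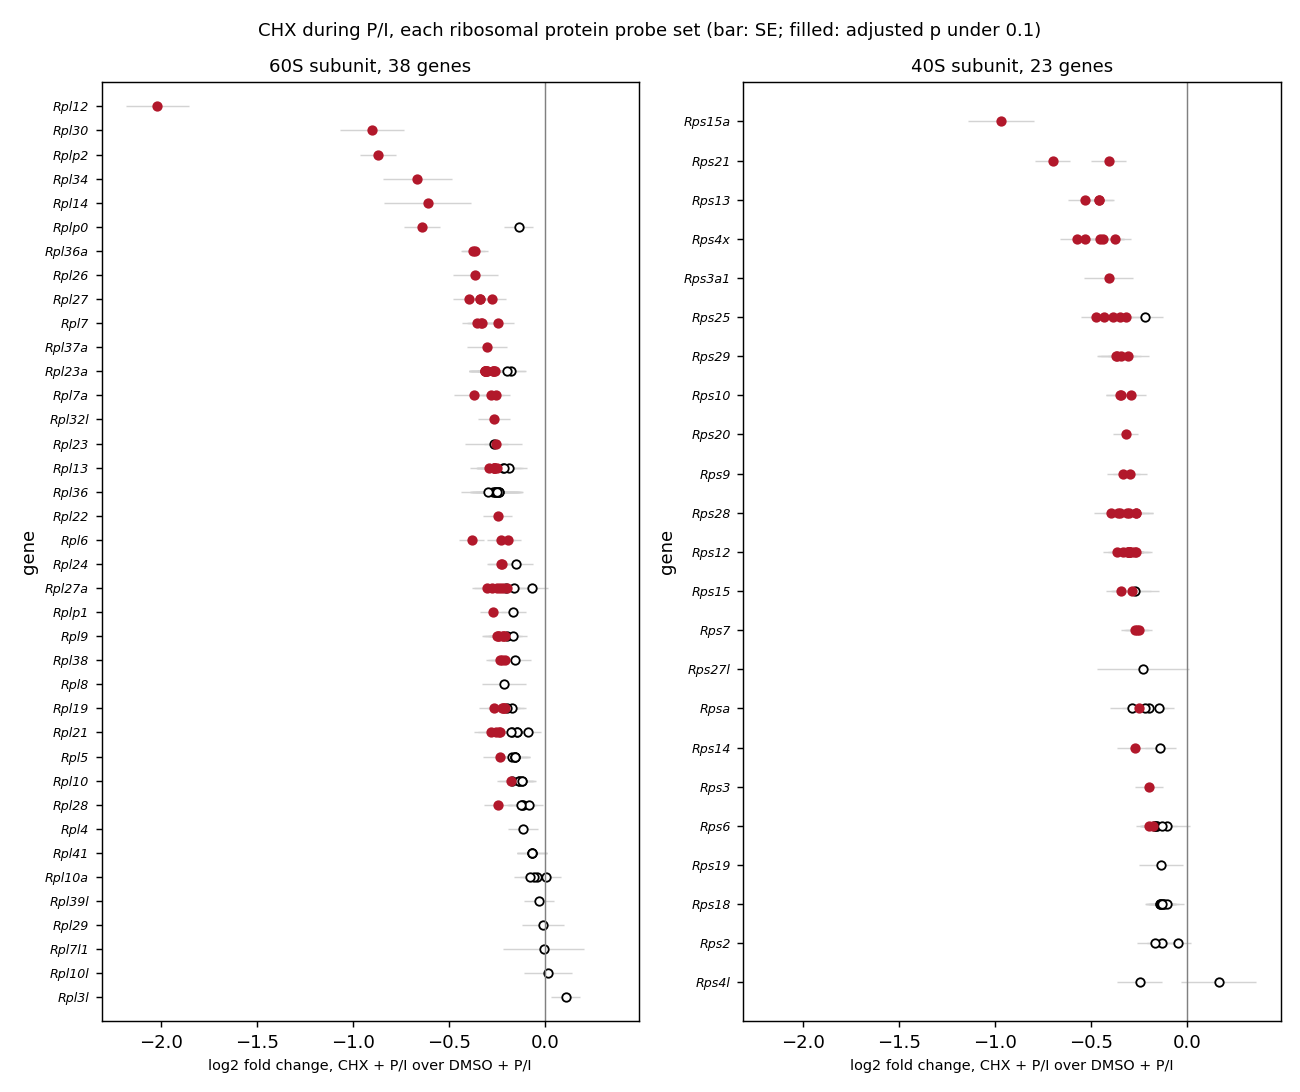
Log2 fold change of CHX + P/I over DMSO + P/I (x axis) for each probe set of the 38 genes of the 60S subunit and the 23 of the 40S subunit (y axis, sorted by the gene's median), with SE bars and filled points for an adjusted p under 0.1. Most genes lie between -0.5 and 0, Rpl12 stands at -2.02, and the paralogs Rpl39l, Rpl7l1, Rpl10l and Rpl3l lie at the bottom of the 60S panel near 0.

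Small nucleolar RNA genes, whose RNAs guide modification of ribosomal RNA, lie inside 20 of the 61 genes in the RefSeq annotation. The median of the gene medians for CHX during P/I was -0.26 for these 20 genes and -0.25 for the other 41. Of the small nucleolar RNAs themselves, 13 in 10 of the genes had 15 probe sets with 1 symbol. All 15 were lower in CHX-treated P/I-stimulated cells, with log2 fold changes between -2.25 and -0.35, beside 12% of all tested. Snord16a, within Rpl4, was at -1.17 (SE 0.22), where Rpl4 itself had -0.11 (SE 0.08) and was not called. Snora52, within Rplp2, had -0.35 (SE 0.10), where Rplp2 had -0.87. Each of the other small nucleolar RNA probe sets had a lower log2 fold change than the median of its host gene. Snora33, for example, had -2.07 (SE 0.33), where the median of Rps12 was -0.30. The probe sets of Snora3 had nearly equal values (-2.247 and -2.242), as did those of Snora21 (-1.647 and -1.653). These differences were not tested.

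P/I alone moved few ribosomal protein mRNAs, in a comparison that shares the DMSO-treated P/I-stimulated arrays with the one for CHX during P/I. Of the 217 probe sets, 4 were higher and 0 were lower in P/I-stimulated than in unstimulated DMSO-treated cells, 1.84% against 9.05% higher and 8.42% lower among all tested probe sets. At an unadjusted p under 0.05, 15 were higher and 0 lower, against 2757 higher and 2830 lower of all 23410. The estimate was above 0 for 179 of 217 and for 10062 of all 23410, with a median log2 fold change of 0.06 beside -0.03 for all tested probe sets. With the replicate number as a block, which the deviations of the arrays bear out for this comparison, 7 were higher, against 13% of all tested.

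The 4 were Rps21 (probe set 10439237), Rpl7l1, Rps13 (10567163) and Rpl27 (10360128). Rps21 had the values given above, with a log2 fold change of 0.42 (SE 0.09, limma adjusted p = 0.0082). Rps13 had levels of 10.15, 10.22 and 10.19 in DMSO-treated P/I-stimulated cells and 9.90, 10.00 and 9.87 in DMSO-treated unstimulated cells, a log2 fold change of 0.27 (SE 0.09). Rpl27, a 60S protein near the tunnel exit, had 11.11, 10.99 and 11.09 against 10.90, 10.75 and 10.80 in the same groups, a log2 fold change of 0.24 (SE 0.08). In Rps21, Rps13 and Rpl27 the groups did not overlap, a pattern found with P/I higher in 12.2% of all tested probe sets. The other probe sets of these genes were not called with P/I, with a log2 fold change of 0.14 for the other 1 of Rps21, 0.17 and 0.15 for the other 2 of Rps13, and 0.18 to 0.19 for the other 3 of Rpl27. The 4 probe sets of Rpl27 held 3 distinct sets of values. The count of 4 was 1 without replicate 3 of the DMSO-treated P/I-stimulated cells and 1 without replicate 3 of the DMSO-treated unstimulated cells. It was 2 without replicate 2 of the DMSO-treated unstimulated cells and 2 without replicate 2 of the CHX-treated unstimulated cells, whose arrays enter only the shared variance.

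Rpl7l1, a relative of Rpl7 whose yeast counterpart acts in assembly of the 60S subunit, had the largest increase with P/I and an estimate near 0 for CHX during P/I. Its levels were 9.29, 9.06 and 9.19 in CHX-treated P/I-stimulated cells, 9.47, 8.94 and 9.15 in DMSO-treated P/I-stimulated cells, 9.01, 8.41 and 8.50 in CHX-treated unstimulated cells, and 9.07, 8.32 and 8.39 in DMSO-treated unstimulated cells. Replicate 1 was the highest in each of the 4 groups, and P/I and unstimulated arrays overlapped in DMSO. The log2 fold change for P/I in DMSO was 0.59 (SE 0.21, limma adjusted p = 0.0965), the change for P/I in CHX was 0.54 (adjusted p = 0.113), and that for CHX during P/I was -0.01 (SE 0.21). With the replicate number as a block, limma called Rpl7l1 higher with P/I, at an adjusted p of 0.00169 in DMSO and 0.00255 in CHX. In the fit with no block, the call for P/I in DMSO was lost without replicate 1, 2 or 3 of the CHX-treated P/I-stimulated cells, 1 or 3 of the DMSO-treated P/I-stimulated cells, 2 or 3 of the CHX-treated unstimulated cells, or 2 or 3 of the DMSO-treated unstimulated cells. Leaving out a CHX-treated array did not move the log2 fold change of 0.59. It was lowest, at 0.45, without replicate 1 of the DMSO-treated P/I-stimulated cells and highest, at 0.83, without replicate 1 of the DMSO-treated unstimulated cells.

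Several of the other paralogs had low levels or wide spreads. Rpl3l, known from muscle, and Rpl39l and Rpl10l, known from testis, averaged 4.88, 4.76 and 6.54 over the 12 arrays, the first and second of them within the lowest values of the array. None of them was called in any comparison. Another paralog, Rpl32l, averaged 8.93 over the 12 arrays. Its 1 probe set was lower with CHX during P/I (log2 fold change -0.265) and was not called in the other comparisons. Rps27l, a p53 target, had the largest spread within groups of all members (SD 0.34, where the median member had 0.07), with 9.59, 8.99 and 9.05 in CHX-treated P/I-stimulated cells and 9.77, 9.20 and 9.34 in DMSO-treated P/I-stimulated cells, replicate 1 being the highest in both. The response of each paralog was set against that of its canonical protein by an exact two-sided permutation test on the difference per array, in 16 tests over Rpl10l, Rpl7l1 and the 2 probe sets of Rps4l. Rps4l, which the symbol rule took in, is annotated as a transcribed pseudogene in RefSeq, and 8 of the 16 tests are on it. The smallest p was 0.1, the smallest that 3 against 3 arrays can give, and the smallest adjusted p was 0.457. Set against Rpl7, Rpl7l1 differed in log2 fold change by 0.70 for P/I in CHX (Rpl7l1 minus Rpl7, exact p = 0.1), 0.52 for P/I in DMSO (exact p = 0.2), 0.35 for CHX during P/I (exact p = 0.2) and 0.18 for CHX in unstimulated cells (exact p = 0.5).

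CHX in unstimulated cells gave no called member. Of the 217 probe sets, 0 were higher and 0 lower in CHX-treated than in DMSO-treated unstimulated cells in limma, against 0.0299% higher and 0% lower among all tested, and at an unadjusted p under 0.05 there were 0 higher and 7 lower, against 967 higher and 641 lower of all 23410. A fit with the replicate number as a block called 0 higher and 0 lower, against 0.491% higher and 0.0171% lower among all tested. With an unmoderated linear model at p under 0.016, 0 were higher and 8 lower, against 297 higher and 263 lower of all 23410. The median log2 fold change was -0.07, beside -0.02 for all tested probe sets, and it was -0.001 with the arrays centred on their medians. An estimate below 0 was found for 186 of the 217 members and for 12909 of all 23410 probe sets.

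With CHX present in both groups, a small number of members were called lower with P/I. Of the 217 probe sets, 33 were lower and 0 higher in P/I-stimulated than in unstimulated CHX-treated cells, or 15.2%, against 11.6% lower and 10.2% higher among all tested probe sets and 18.6% lower among the other probe sets that averaged log2 10 or more. That share of called members is thus close to the background. The median log2 fold change was -0.10, beside 0.02 for all tested probe sets and -0.11 for the other probe sets that averaged log2 10 or more. The estimate was below 0 for 185 of the 217 members and for 10588 of all 23410. The groups did not overlap, with P/I lower, in 17.4% of all tested and in 548 of the 1611 other probe sets that averaged log2 10 or more. The same pattern held for 94 of the 217 members. The largest decreases were those of Rpl12 (log2 fold change -1.61, SE 0.16), Rpl30 (-0.96, SE 0.17), Rplp2 (-0.79, SE 0.09), Rpl14 (-0.65, SE 0.23) and Rps15a (-0.64, SE 0.17), with adjusted p-values from limma between 4.44e-05 and 0.0754. The groups did not overlap in these 5, a pattern found with P/I lower in 17.4% of all tested probe sets. All 6 probe sets of Rps25, 4 of the 5 of Rps4x and 4 of the 8 of Rps6, the main substrate of the S6 kinases, were among the 33. The count was 20 without replicate 1 and 16 without replicate 3 of the CHX-treated P/I-stimulated cells, and it was 21, 20 and 17 without replicates 1, 2 and 3 of the CHX-treated unstimulated cells.

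The difference between the effect of P/I in CHX and in DMSO was tested as an interaction, which shares all 12 arrays with the comparisons above. It was below 0 at an adjusted p under 0.1 for 20 probe sets of 11 genes and above 0 for 0, or 9.22% of the members, against 7.62% below and 6.04% above among all tested. Among the 1611 other probe sets that averaged log2 10 or more, 9.68% were below and 7.39% above. That share of called members is thus close to the background. The median difference was -0.17, beside 0.05 for all tested probe sets and -0.11 for the 1611 other probe sets that averaged log2 10 or more. The largest called differences were those of Rpl12 (-1.84, SE 0.23), Rpl30 (-0.95, SE 0.24), Rplp2 (-0.75, SE 0.13), Rplp0 (-0.60, SE 0.13) and Rps21 (-0.57, SE 0.13). Rps15a had a difference of -0.69 that limma did not call (adjusted p = 0.107) except with the replicate block (adjusted p = 0.0473). Rps25, with 5 probe sets, Rpl27 with 3, and Rps4x, Rps13 and Rpl36a with 2 each were also among the 20, and Rpl6 had 1. The count was 13 without replicate 2 of the CHX-treated P/I-stimulated cells, and 11 and 13 without replicates 1 and 2 of the CHX-treated unstimulated cells.

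**Figure D5:**
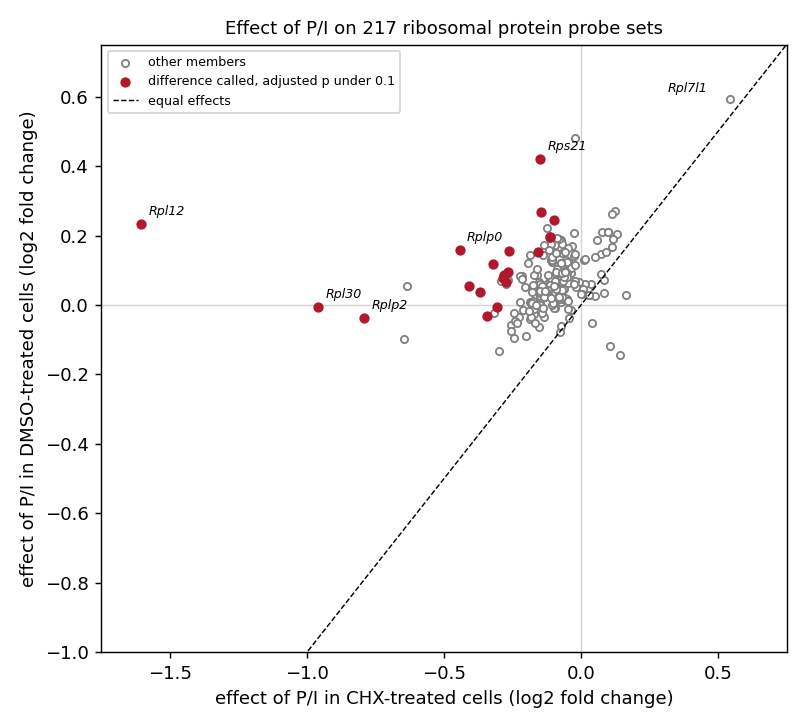
Effect of P/I in CHX-treated cells (x axis) and in DMSO-treated cells (y axis), as log2 fold changes, for the 217 ribosomal protein probe sets, with the line of equal effects. Filled points are the 20 probe sets whose effects differed at an adjusted p under 0.1, and all 20 lie above the line, with Rpl12 farthest from it.

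The count of 132 members lower with CHX during P/I changed most when replicate numbers 2 or 3 were left out. Leaving out replicate 2 of the CHX-treated P/I-stimulated cells gave 79, and no other single array moved the count by over 1.5 times. Leaving out all 4 arrays with replicate number 2 gave 27, and those with number 3 gave 28, with median log2 fold changes between -0.28 and -0.19 over all such settings. With 1 probe set per gene, the one with the highest mean, 34 of the 61 were lower.

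Other genes of the ribosome's life cycle were counted with 1 probe set per gene. Of 19 measured mRNAs that are known to carry TOP stretches and are not members, 6 were lower in CHX-treated P/I-stimulated cells and 0 higher, or 31.6% and 0% beside the 12% and 13.2% of all tested, with a median log2 fold change of -0.14. Among the 1611 probe sets outside the members that averaged log2 10 or more, 22.3% were lower and the median was -0.11. The difference was not tested. The 6 lower mRNAs included the histone chaperone Nap1l1 (-1.27, SE 0.19), the elongation factor subunit Eef1b2 (-0.53, SE 0.08), nucleophosmin, Npm1 (-0.53, SE 0.13), and the initiation factor subunit Eif3f (-0.42, SE 0.12). Of the 77 mitochondrial ribosomal proteins, which are made in the cytosol for a separate ribosome, 10 were lower and 3 higher, or 13% and 3.9%, with a median log2 fold change of -0.18 and 56 of the 77 estimates below 0. Mrps28 had -0.77 (SE 0.13) and Mrpl45 had 0.66 (SE 0.15).

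Ribosome assembly factors, which work in the nucleolus and leave the finished subunit, were set beside the proteins they assemble, with no test between the lists. Of 37 measured, 9 were higher and 0 lower with P/I in DMSO, or 24.3% and 0% beside the 9.05% and 8.42% of all tested, with a median log2 fold change of 0.43, among them Ltv1, which exports and matures the 40S subunit (1.05, SE 0.20), Bysl (0.99, SE 0.29) and the RNA polymerase I factor Ubtf (0.56, SE 0.16). With CHX during P/I 7 of the 37 were lower and 3 higher, or 18.9% and 8.11%, with a median log2 fold change of -0.32 and Ubtf at -1.09 (SE 0.16). Of 30 initiation and elongation factors, 8 were higher and 2 lower with P/I in DMSO, or 26.7% and 6.67%, with the elongation factor kinase Eef2k at -1.36 (SE 0.10) and Eif1a at 0.79 (SE 0.15). With CHX during P/I, 3 of these 30 were lower and 2 higher, or 10% and 6.67%, with a median log2 fold change of -0.10.

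Of 16 measured genes of growth signalling to ribosomes, 4 were higher and 4 lower in CHX-treated than in DMSO-treated P/I-stimulated cells, or 25% each way, with a median log2 fold change of -0.02. Larp1, which binds the TOP stretch and represses translation of these mRNAs, changed by -1.46 on the log2 scale (SE 0.18), and Eif4ebp1, an mTOR substrate that holds back the cap-binding protein, had -0.93 (SE 0.13). Mtor had 1.01 (SE 0.14), and Rps6ka5, a kinase of the ribosomal S6 kinase family that acts in the nucleus, had 1.29 (SE 0.18). The part of these changes in the values of the ribosomal protein mRNAs was not tested.

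The cell type was checked against its markers. The 9 measured T cell markers averaged between 7.87 and 12.4 over the 12 arrays, and their summed log2 level was 89.7 in CHX-treated P/I-stimulated, 89.7 in DMSO-treated P/I-stimulated, 88.5 in CHX-treated unstimulated and 88.6 in DMSO-treated unstimulated cells. Single markers moved both ways beneath these sums. With CHX during P/I 3 of the 9 were higher and 2 lower, with Lat at -0.78, Cd2 at -0.73 and Cd3e at 0.46 on the log2 scale, and with P/I in DMSO 2 were higher and 2 lower, with Zap70 at 1.18. The part of these changes in the values of the ribosomal protein mRNAs was not tested. The 5 B cell markers lay between 4.22 and 7.09, the 6 myeloid markers between 4.36 and 5.17, and the 5 erythroid and fibroblast markers between 4.59 and 6.72. Of these 16 markers, Cd79b and Adgre1 were higher with CHX during P/I (0.54 and 0.25 on the log2 scale) and Blk and Pdgfra lower (-0.87 and -0.85). Arrays of a group correlated at 0.987 to 0.997 over all tested probe sets.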

How the data were processed

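Total RNA was hybridised to 12 one-colour arrays. The authors adjusted the background for probe sequence, normalized by quantiles and summarized to log2 RMA values in Partek (version not given in the sources used here). The deposited log2 table was used as it stands, with no further scaling or filter, and 0 of its columns were unused. Symbols came from the platform annotation, and 61 of the 61 gene IDs matched RefSeq. A mean per group was fitted to all 12 arrays with limma 3.58.1 in R 4.3.3, and p-values were adjusted by Benjamini-Hochberg over 23410 probe sets, with calls at an adjusted p under 0.1. In simulated arrays with independent noise, mean estimates of shifts of known size in CHX during P/I were checked against their true size. Those shifts were larger than most changes of the members.

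Members and lists were chosen with earlier results of these data known. Values were given for paralogs with their canonical proteins, for the 5 largest called changes per direction and comparison whose groups did not overlap, for the 3 members with the largest spread, and for up to 4 genes per list with the smallest p. Rpl4, Rpl10a, Rpl29, Rpl32l, Rpl34, Rpl36, Rpl36a, Rpl41, Rpl6, Rplp1, Rps2, Rps4x, Rps6, Rps12, Rps18, Rps25, Rps28, Rpl23a and the small nucleolar RNAs were named after their values were seen. Replicate numbers came from the titles. Same-numbered arrays deviated together at correlations of 0.0644 to 0.75 over all tested probe sets, above 0.1 in 11 of 12 pairs. The lowest was in CHX during P/I, where the others were 0.277 and 0.267. Over the members alone, the correlations for P/I in CHX were 0.323, -0.232 and -0.153, and those for CHX during P/I were 0.0399, -0.119 and 0.0167. The interaction was not checked in this way. Counts are from the fit with no block unless the block is named. Alternatives were a variance trend, robust variances, a stricter adjusted p of 0.05, array centring, quantile normalization, a mean of at least log2 5, all 35399 probe sets, the replicate block, only the groups compared, an unmoderated linear model (the methods' analysis of variance) after Benjamini-Hochberg and at p under 0.016, which the methods use for P/I against unstimulated cells and which was applied here to every comparison, 1 probe set per gene, and leaving out arrays. Counting identical probe sets once, leaving out the divergent paralogs and p under 0.024, the methods' threshold for decreases with CHX, were added after seeing the data.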

Additional observations from a re-analysis of the deposited data

Results flagged for a closer look

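For 7 members with the largest called changes in some comparison, the effect of P/I in CHX-treated cells differed from that in DMSO-treated cells in a test of the interaction (adjusted p under 0.1 from limma). These members were chosen for called changes in comparisons on the same arrays, the interaction among them, so the test is no independent support. The interaction was below 0 for 9.22% of all members and for 7.62% of all tested probe sets. It was below 0 for 9.68% of the 1611 other probe sets that averaged log2 10 or more. The differences in log2 effect, CHX minus DMSO, were -1.84 for Rpl12, -0.95 for Rpl30, -0.75 for Rplp2, -0.60 for Rplp0 (probe set 10524718), -0.57 for Rps21 (10439237), -0.42 for Rps13 (10567163) and -0.34 for Rpl27 (10360128). Rpl12, Rpl30, Rplp2 and Rplp0 were lower with P/I in CHX and were not called with P/I in DMSO. Rps21, Rps13 and Rpl27 were higher with P/I in DMSO and were not called with P/I in CHX. The interaction contrasts CHX-treated groups whose time in CHX may differ, and that time cannot be told apart from stimulation.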

How the results depend on the processing

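No result for a single probe set changed direction. Of 758 alternative values for 29 such results, 635 kept their call and 123 lost it, most often those of Rpl14, Rpl7l1, Rps13 and Rpl27. The members higher with P/I in DMSO, 4 in the report, numbered 2 with a variance trend, after quantile normalization, with all probe sets tested and with only the groups compared, 1 at an adjusted p under 0.05 and with 1 probe set per gene, and 14 in both unmoderated fits. With the replicate block they numbered 7, and 1 member, Rpl7l1, was higher with P/I in CHX. Leaving out arrays gave 0 to 6 higher and 0 to 1 lower.

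For CHX during P/I, 132 lower became 85 with centred arrays, 85 after quantile normalization, 75 with only the groups compared, 151 in the unmoderated fit at p under 0.024, 34 with 1 probe set per gene and 27 to 130 when arrays were left out. Its median of -0.25 became -0.19 with centring, -0.17 after quantile normalization (with 1 higher) and -0.28 to -0.19 without arrays. For CHX in unstimulated cells, 8 were lower in the unmoderated fit at p under 0.016, and the median was -0.001 with centring.

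For P/I in CHX, 33 lower became 21 at an adjusted p under 0.05 and after quantile normalization, 52 in the unmoderated fit after Benjamini-Hochberg, 11 with 1 probe set per gene and 5 to 37 without arrays, with 1 higher after quantile normalization, with a mean of at least log2 5 and with only the groups compared, 0 to 1 higher without arrays, and a median of -0.138 to -0.062 without arrays. For the interaction, 20 became 12 at an adjusted p under 0.05, 11 after quantile normalization, 43 and 37 in the unmoderated fits, 6 with 1 probe set per gene and 3 to 26 without arrays, and the median became -0.091 after quantile normalization. The unmentioned alternatives kept each count within 1.5 times. The cause of these changes was not tested, apart from the smaller number of probe sets or arrays where that is the alternative itself. The replicate block changed no other count by over 1.5 times.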
